A study of Homo sapiens with 10 samples.

Results

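The BCL2 family genes described here are the 10 rows of the count table with the symbols MCL1, BCL2, BCL2L1, BCL2L2, BCL2L11, BBC3, PMAIP1, BID, BAX and BAK1, out of 28380 genes. They were taken from the table by symbol, and all 10 had enough counts to be tested among 13378 genes. Their mRNA was measured in RPE-1 cells, an established line of human retinal pigment epithelial cells immortalized with telomerase, after 4 h with 25 µM sulforaphane (SFN), an isothiocyanate from cruciferous vegetables, or with the vehicle DMSO. There were 5 replicates of 50000 cells per treatment, all in complete medium. The labels do not say whether the replicates were separate cultures, so p-values measure the spread between these samples, which may be technical.

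Proteins of the BCL2 family decide whether the outer membrane of the mitochondrion stays intact. The effectors BAX and BAK1 form pores in it that release cytochrome c, pro-survival members such as MCL1, BCL2, BCL2L1 (BCL-xL) and BCL2L2 (BCL-w) hold the effectors in check, and BH3-only members such as BCL2L11 (BIM), BBC3 (PUMA), PMAIP1 (NOXA) and BID are induced or activated by stress and bind the pro-survival proteins or the effectors. MCL1 is a short-lived protein whose level follows its mRNA and its degradation, and NOXA binds MCL1 in preference to BCL2 or BCL-xL. Several of these genes are textbook targets of stress-regulated transcription factors, among them ATF4, CHOP (encoded by DDIT3) and the FOXO factors.

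The promoters of the members with the largest increase and the largest decrease are shown to give the sequence context of each change. Each is the 250 bases before the RefSeq start in GRCh38.p14, 5′ to 3′ on the strand of the gene, with capitals for a match to any of the motifs named below.
PMAIP1 (chr18:59899746-59899995, plus strand): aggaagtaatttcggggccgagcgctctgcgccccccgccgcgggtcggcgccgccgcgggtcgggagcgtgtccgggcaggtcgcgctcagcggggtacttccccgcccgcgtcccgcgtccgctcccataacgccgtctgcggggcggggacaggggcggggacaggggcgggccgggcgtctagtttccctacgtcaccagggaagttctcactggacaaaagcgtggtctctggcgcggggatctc
BCL2L11 (chr2:111120664-111120913, plus strand): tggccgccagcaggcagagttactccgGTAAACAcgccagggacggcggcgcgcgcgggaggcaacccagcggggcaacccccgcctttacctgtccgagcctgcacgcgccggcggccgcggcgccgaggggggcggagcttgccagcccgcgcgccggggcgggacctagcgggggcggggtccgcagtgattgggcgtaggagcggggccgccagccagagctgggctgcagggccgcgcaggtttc
The capitals in BCL2L11 mark GTAAACA, the core of a FOXO site, which begins 223 bases before the start of the RefSeq transcript. On either strand this motif occurred in 2.98% of 35116 promoter windows of the same length. Also searched were TGATGNAA, the core of the C/EBP-ATF response element bound by ATF4 and CHOP (3.14% of windows), TGACGTCA, the cyclic AMP response element (1.65%), the heat shock element, that is GAA, TTC and GAA each 2 bases apart (0.441%), and TGACNNNGC, the antioxidant response element bound by NRF2 (10.9%). No exact match to any of these motifs occurred in the PMAIP1 window, and inexact matches were not searched. RefSeq windows, 13 in all, were at hand for 8 of the 10 members, not for MCL1 and BCL2L2, and the only other match among them was TGACCCGGC, an antioxidant response element motif 89 bases before the start of BAX. A match of letters is a description and not a binding site, and its absence concerns this window alone.

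The total count per library ranged from 15689294 to 20666692 in DMSO and from 12375860 to 17308706 in SFN. DMSO replicate 1 stood apart from the other DMSO libraries, with a mean Spearman correlation of 0.935 with them across genes against 0.979 to 0.982 for the others. Levels are given in CPM, the usual unit of counts relative to the total of a library, here with TMM scaling from edgeR. The deviation of log2 CPM from the mean over libraries, regressed on the log2 length of the canonical transcript, had a slope of -0.271 in this library, while the slope was between 0.0872 and 0.148 in the other DMSO replicates and between -0.183 (replicate 2) and 0.109 (replicate 5) in SFN. Results for the 10 members are therefore given with and without DMSO replicate 1. As a check of the cell label, the cytoskeletal genes KRT8, KRT18 and VIM summed to between 5950 and 6887 CPM in DMSO. VIM made up most of that sum, with a DMSO mean of 5688 CPM, against 383.4 for KRT8 and 195.5 for KRT18. OTX2, MITF, BEST1 and PMEL were the retinal pigment epithelium markers with enough counts to be tested. RPE65, RLBP1 and TYRP1, which define mature pigment epithelium, had at most 3, 4 and 2 counts in a library. OTX2 and MITF fell, with log2 fold changes of -0.64 and -1.12. Markers of blood, endothelial and neural cells, of which 7 of 10 were in the table and only SYP had enough counts to be tested, together reached at most 2.37 CPM in a DMSO library and 2.38 CPM in an SFN library.

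SFN changed the mRNA of 5 of the 10 members. PMAIP1 rose 4.48-fold and MCL1 2.52-fold, whereas BCL2L11 fell to 0.367 of its DMSO level, BAK1 to 0.688 and BCL2L2 to 0.726 (quasi-likelihood test of edgeR, Benjamini-Hochberg adjusted across tested genes, at an adjusted p under 0.05). The pro-survival, BH3-only and effector groups each held a gene that fell, and the pro-survival and BH3-only groups each held a gene that rose. By this test 23.0% of all tested genes were called, 9.07% as higher and 13.9% as lower, compared with 2 members higher and 3 lower. With the study's limit for a differentially expressed gene (DEG), an absolute log2 fold change above 1 as well, 3 members were DEGs (PMAIP1, MCL1 and BCL2L11), 2 of them higher and 1 lower, against 8.69% of tested genes, 2.94% higher and 5.76% lower. At an unadjusted p under 0.05, 7 members were past the threshold, against 34.6% of tested genes. The median log2 fold change of the 10 members was 0.046, against -0.028 for all tested genes. DMSO and SFN replicates did not overlap in the 5 members called, compared with 19.9% of all tested genes, 8.78% with SFN above DMSO and 11.1% below. Without DMSO replicate 1 the same test called 9 of the 10 members, all except BBC3, 4 as higher and 5 as lower. It then called 46.1% of all tested genes, 22.5% as higher and 23.5% as lower. Among the libraries kept, length slopes were 0.0872 to 0.148 in DMSO and -0.183 to 0.109 in SFN, so they still differed by treatment. Of the members gained, only BID was also called from all 10 libraries with the length slope as a covariate (edgeR quasi-likelihood adjusted p = 0.0083). BCL2, BCL2L1 and BAX were not (0.30, 0.78 and 0.38). How much of their gain came from transcript length was not tested.

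**Figure D1:**
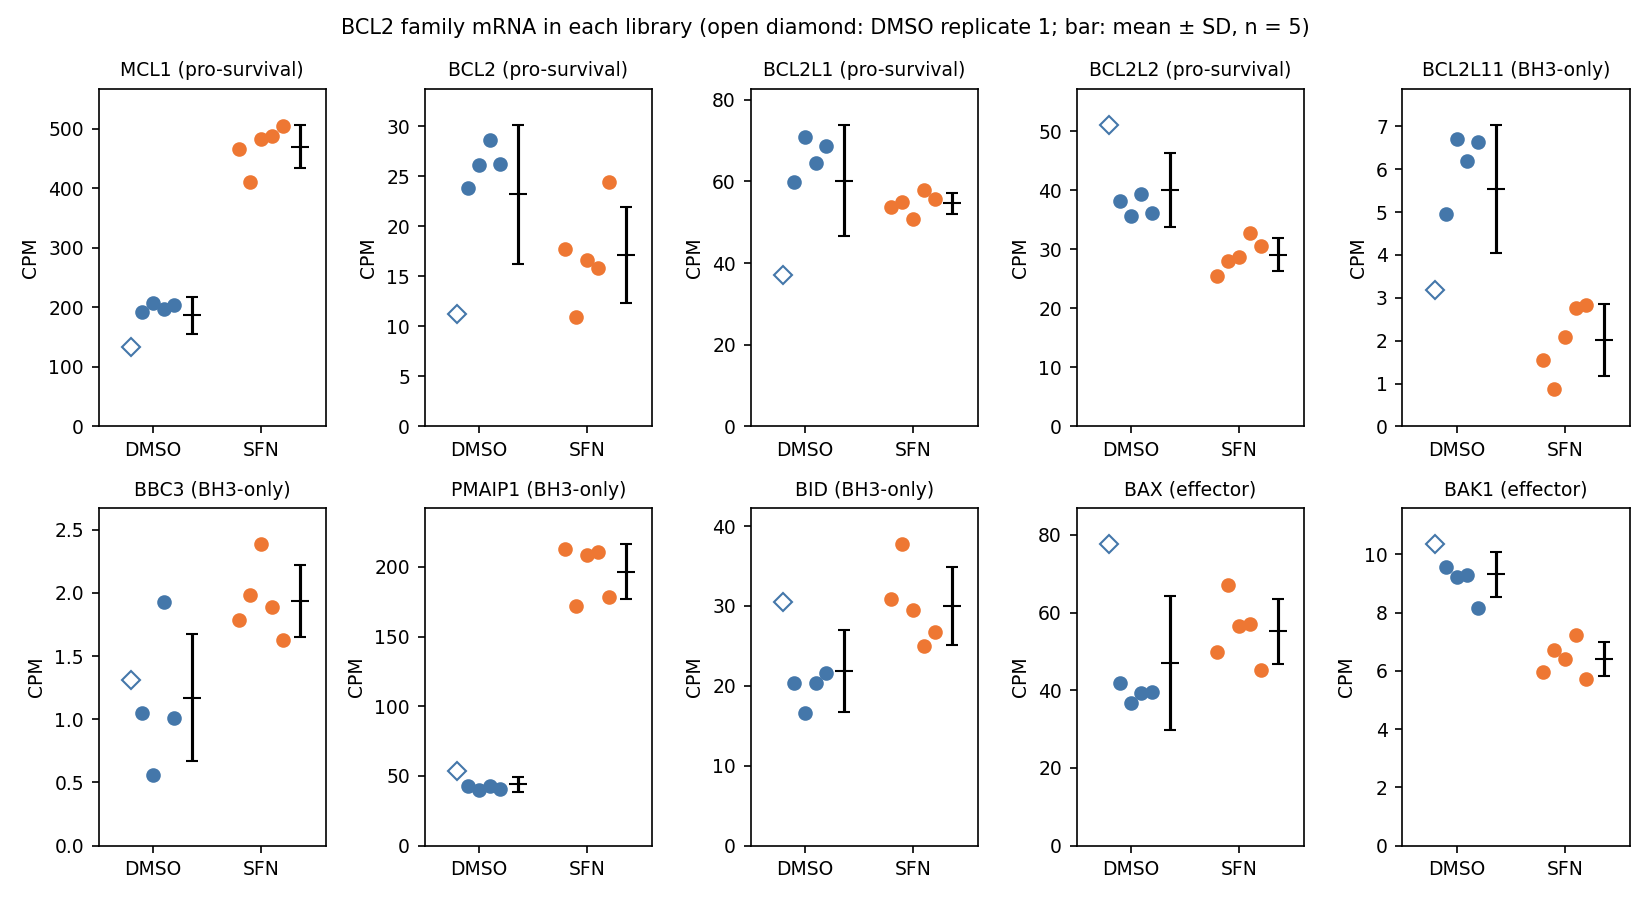
Level in CPM (linear axes from 0) of each BCL2 family gene in each library, with blue points for DMSO, orange points for SFN, an open diamond for DMSO replicate 1 and black bars for the mean ± SD (n = 5). The SFN points of PMAIP1 and MCL1 lie above all DMSO points and those of BCL2L11, BAK1 and BCL2L2 below them, and DMSO replicate 1 lies outside the range of the other DMSO libraries in 9 of the 10 genes.

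Among the pro-survival genes, MCL1 was the member that rose. MCL1 lies on chromosome 1 of GRCh38 from 150560895 to 150579738 on the minus strand, with 3 exons in its canonical transcript. In DMSO replicates 1 to 5 its level was 133, 192, 207, 197 and 204 CPM. In the SFN replicates it was 466, 411, 483, 488 and 504 CPM. The groups were far apart, with DMSO replicate 1 and SFN replicate 2 the lowest of their groups. The mean went from 187 ± 30.7 CPM (SD, n = 5) to 470 ± 35.9 CPM (SD, n = 5), with a log2 fold change of 1.33 ± 0.13 (SE, edgeR quasi-likelihood adjusted p = 3.3e-05), and 2.06% of tested genes had a larger log2 fold change. The increase remained past the threshold in all 19 alternative analyses, with a log2 fold change between 1.23, without DMSO replicate 1, and 1.47, with each library's length slope as a covariate. The count is per gene, so the pro-survival and the shorter pro-apoptotic splice form of MCL1 are not separated, and the same holds for BCL2L1 and BCL2L11. Genes that overlap MCL1 on either strand had at most 35 counts in a library (ADAMTSL4), against at least 2132 for MCL1.

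BCL2L2, which encodes BCL-w, fell. It lies on chromosome 14 from 23298790 to 23311751 on the plus strand. The DMSO replicates had 51.0, 38.1, 35.7, 39.4 and 36.1 CPM and the SFN replicates 25.4, 28.0, 28.6, 32.7 and 30.6 CPM. Every SFN library lay below every DMSO library, and DMSO replicate 1 was the highest. The log2 fold change was -0.46 ± 0.13 (SE, edgeR quasi-likelihood adjusted p = 0.020) and -0.37 without DMSO replicate 1 (adjusted p = 0.0053 by the same test). The call was lost with a replicate block (adjusted p = 0.068), without SFN replicate 1 (0.061), without SFN replicate 3 (0.052) and when tested against a 1.2-fold change (0.12). The neighbouring PPP1R3E, which overlaps BCL2L2 on the other strand, had between 71 and 240 counts and also fell (-0.59 ± 0.15 SE on the log2 scale, edgeR quasi-likelihood adjusted p = 0.014). Since the sources do not say whether strand was used in counting, reads of these genes may not be fully separated. The read-through gene BCL2L2-PABPN1, on the same strand, had between 8 and 38 counts.

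BCL2 and BCL2L1, the other pro-survival members, were not past the threshold in the comparison of all 10 libraries. BCL2, on chromosome 18 from 63123346 to 63320128 on the minus strand, had 11.2, 23.8, 26.2, 28.6 and 26.2 CPM in the DMSO replicates and 17.8, 10.96, 16.7, 15.9 and 24.4 CPM in the SFN replicates. DMSO replicate 1 and SFN replicate 2 were low in their groups, and SFN replicate 5 was high. The log2 fold change of BCL2 was -0.44 ± 0.26 (SE, edgeR quasi-likelihood adjusted p = 0.26), -0.61 without DMSO replicate 1 (adjusted p = 0.0091 by the same test) and -0.12 with the length slope as a covariate (adjusted p = 0.30). BCL2L1, on chromosome 20 from 31664452 to 31723989 on the minus strand, had 36.99, 59.7, 70.8, 64.4 and 68.8 CPM in DMSO and 53.8, 55.0, 50.9, 57.8 and 55.6 CPM in SFN. The SFN values lay in the gap between DMSO replicate 1 and the other DMSO libraries. The log2 fold change of BCL2L1 was -0.14 ± 0.16 (SE, edgeR quasi-likelihood adjusted p = 0.59), -0.28 without DMSO replicate 1 (adjusted p = 0.013) and 0.03 with the length slope as a covariate (adjusted p = 0.78), so the sign was not the same in all analyses. Relative to both genes in the same library, MCL1 counts were higher with SFN, a description chosen after the values were seen and not tested. The ratio of MCL1 to BCL2 counts was between 6.88 and 11.8 in DMSO and between 20.6 and 37.5 in SFN, and the ratio of MCL1 counts to BCL2L1 counts was between 2.93 and 3.59 in DMSO and between 7.47 and 9.50 in SFN.

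PMAIP1, the BH3-only gene that encodes NOXA, had the largest change of the 10 members and the 17th smallest p-value of all tested genes. It lies on chromosome 18 from 59899996 to 59904305 on the plus strand, with 2 exons. In DMSO it had 53.4, 42.7, 39.9, 42.9 and 40.5 CPM, and in SFN 213, 172, 208, 211 and 179 CPM. No library of one group came near the other group, and the spread within each was small beside the difference. The mean rose from 43.9 ± 5.50 CPM (SD, n = 5) to 197 ± 19.5 CPM (SD, n = 5), a log2 fold change of 2.16 ± 0.12 (SE, edgeR quasi-likelihood adjusted p = 4.6e-07). Only 0.830% of tested genes had a larger log2 fold change. Over the 19 alternative analyses the PMAIP1 log2 fold change stayed between 2.09 and 2.24 and past the threshold in each. It was 2.24 without DMSO replicate 1 (edgeR quasi-likelihood adjusted p = 1.0e-09).

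BCL2L11, which encodes BIM, moved the other way. It lies on chromosome 2 from 111119378 to 111168444 on the plus strand. In DMSO replicates 1 to 5 it had 51, 109, 120, 103 and 112 counts, equal to 3.18, 4.97, 6.71, 6.21 and 6.63 CPM. In SFN it had 26, 10, 28, 41 and 40 counts, equal to 1.55, 0.863, 2.09, 2.77 and 2.82 CPM. All SFN libraries were below DMSO replicate 1, itself the lowest DMSO library, and SFN replicate 2 was the lowest of all. The log2 fold change was -1.44 ± 0.31 (SE, edgeR quasi-likelihood adjusted p = 0.0053). It stayed past the threshold in all 19 alternative analyses, between -1.59 without DMSO replicate 1 and -1.18 with the length slope as a covariate. From counting error alone, with the counts of each group summed, the decrease was 2.70-fold with a 95% exact interval of 2.24 to 3.28. The antisense gene MIR4435-2HG spans BCL2L11 and had between 369 and 924 counts in a library. It also fell, by 0.53 ± 0.12 (SE) on the log2 scale (edgeR quasi-likelihood adjusted p = 0.0094), and as the sources do not say whether strand was used, its part in the BCL2L11 counts was not tested.

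BID and BBC3 had positive log2 fold changes that were not past the threshold in all 10 libraries. BID, a BH3-only protein that caspase cleavage activates, lies on chromosome 22 from 17734138 to 17774770 on the minus strand. It had 30.5, 20.4, 16.6, 20.3 and 21.6 CPM in DMSO and 30.8, 37.7, 29.5, 25.03 and 26.8 CPM in SFN. DMSO replicate 1 alone overlapped the SFN libraries. The BID log2 fold change was 0.45 ± 0.17 (SE, edgeR quasi-likelihood adjusted p = 0.075), and BID was past the threshold without DMSO replicate 1 (0.60, adjusted p = 0.0017), with the length slope as a covariate (0.33, adjusted p = 0.0083) and with DESeq2. BBC3, which encodes PUMA, lies on chromosome 19 from 47220822 to 47232766 on the minus strand and had only 10 to 32 counts in a DMSO library and 23 to 32 in an SFN library. Its levels were 1.31, 1.05, 0.559, 1.93 and 1.01 CPM in DMSO and 1.79, 1.98, 2.38, 1.89 and 1.62 CPM in SFN. The BBC3 log2 fold change was 0.73 ± 0.30 (SE, edgeR quasi-likelihood adjusted p = 0.10). It was past the threshold under limma-voom and without DMSO replicate 4, the highest DMSO library (0.97, adjusted p = 0.037), and without DMSO replicate 1 it was 0.77 (adjusted p = 0.058).

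Of the effectors, BAK1 fell and BAX was not past the threshold, and the difference between their changes was not tested. BAK1, on chromosome 6 from 33572547 to 33580293 on the minus strand, had 10.3, 9.57, 9.23, 9.28 and 8.17 CPM in DMSO and 5.96, 6.73, 6.40, 7.22 and 5.72 CPM in SFN. No SFN library reached the lowest DMSO library. BAK1 fell by 0.54 ± 0.12 (SE) on the log2 scale (edgeR quasi-likelihood adjusted p = 0.0075) and by 0.51 without DMSO replicate 1. The call was kept in 18 of 19 alternatives, the exception being limma-voom with quantile normalization (-0.36, adjusted p = 0.053). Its processed pseudogene BAK1P1 had at most 3 counts. BAX, on chromosome 19 from 48954815 to 48961798 on the plus strand, had 77.5, 41.97, 36.7, 39.3 and 39.5 CPM in DMSO and 49.95, 67.2, 56.5, 57.2 and 45.1 CPM in SFN. DMSO replicate 1 was the highest library of all, and each SFN library was above the other DMSO libraries. The BAX log2 fold change was 0.23 ± 0.21 (SE, edgeR quasi-likelihood adjusted p = 0.48), 0.48 without DMSO replicate 1 (adjusted p = 0.0026) and 0.08 with the length slope as a covariate (adjusted p = 0.38).

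**Figure D2:**
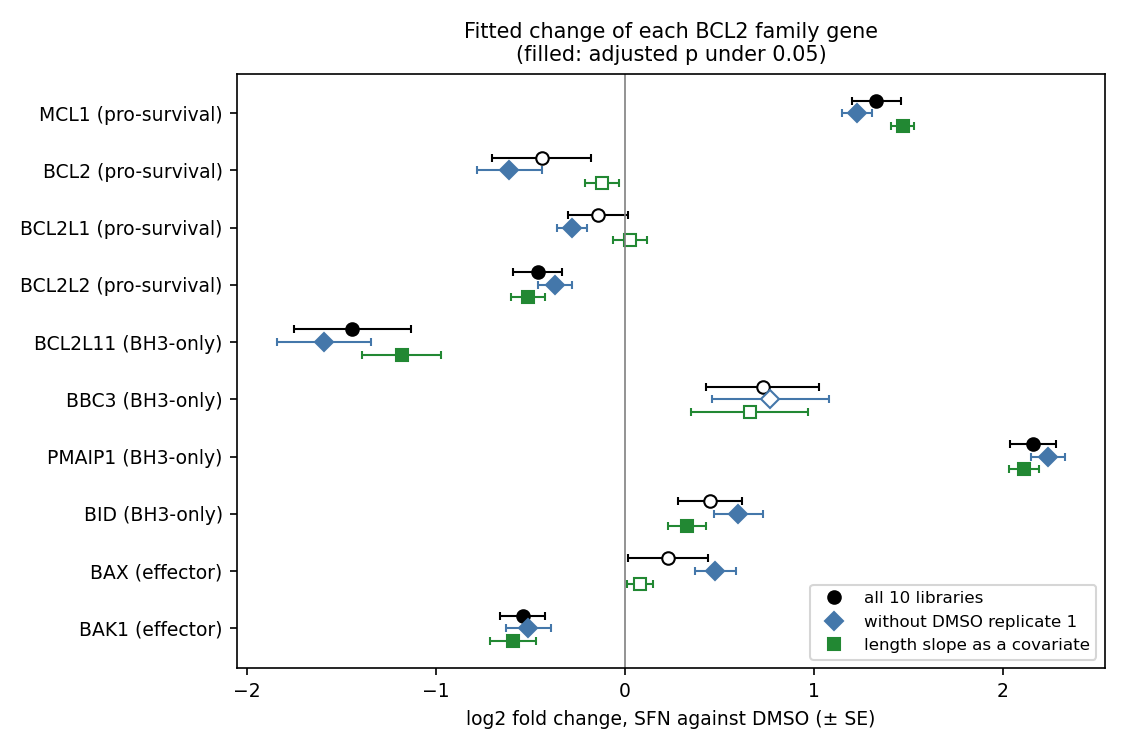
Log2 fold change of each BCL2 family gene, SFN against DMSO, with its standard error, from all 10 libraries (black circles), without DMSO replicate 1 (blue diamonds) and with each library's length slope as a covariate (green squares); filled symbols had an adjusted p under 0.05 by edgeR's quasi-likelihood test. PMAIP1, MCL1, BCL2L11, BAK1 and BCL2L2 are filled in all 3, BBC3 in none of them, and BCL2, BCL2L1 and BAX only without DMSO replicate 1.

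The members differed among themselves in how DMSO replicate 1 stood to the other DMSO libraries, and this went with the length of their transcripts. BAX, with a canonical transcript of 795 bases, was 0.98 higher there on the log2 CPM scale, and BID, of 2177 bases, 0.63 higher. BCL2, of 6881 bases, was lower there by a log2 CPM difference of -1.21, and BCL2L11, of 5098 bases, by -0.91. In all, 5 members were above the range of the other DMSO libraries, 4 were below it and 1, BBC3, was inside. BCL2L2, of 3526 bases, was above the range although BCL2L1, of 2574 bases, was below it. In SFN, replicate 2, which had the most negative length slope of its group, was the lowest SFN library for MCL1, BCL2, BCL2L11 and PMAIP1 and the highest for BAX and BID. PMAIP1, of 1899 bases, is shorter than BID, so its low value there did not follow the order of length. With the length slope as a covariate 6 members were called, the 5 above and BID, beside 50.3% of all tested genes.

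**Figure D3:**
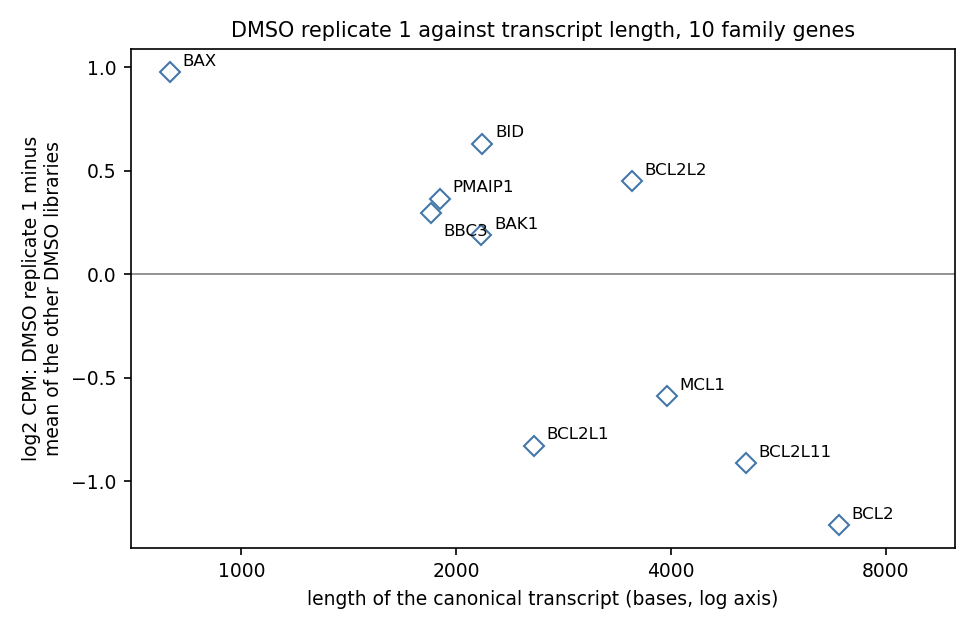
Difference in log2 CPM between DMSO replicate 1 and the mean of the other 4 DMSO libraries (vertical axis) against the length of the canonical transcript in bases (horizontal log axis) for the 10 family genes. The points run from 0.98 for BAX, the shortest, to -1.21 for BCL2, the longest.

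To compare members without any library scaling, 4 ratios of a death gene to a pro-survival gene were taken within each library and tested with a two-sided exact permutation test over the 10 libraries, whose smallest possible p is 0.0079. NOXA opposes MCL1 directly, so PMAIP1 was set against MCL1. The mean log2 ratio of PMAIP1 to MCL1 counts went from -2.08 ± 0.44 (SD, n = 5) in DMSO to -1.26 ± 0.14 (SD, n = 5) in SFN, so PMAIP1 gained 1.76-fold on MCL1 although both rose (exact permutation p = 0.016, 0.032 adjusted over the 4 ratios). The groups overlapped because the ratio in DMSO replicate 1 was -1.31, above SFN replicate 5 with -1.50, and without DMSO replicate 1 the difference was 1.01. The log2 ratio of BCL2L11 to MCL1 fell from -5.10 ± 0.20 to -7.95 ± 0.58 (SD, n = 5 each), a 7.22-fold shift toward MCL1 with no overlap (exact permutation p = 0.0079, 0.032 adjusted over the 4 ratios). Every SFN library was already below every DMSO library for BCL2L11 and above every DMSO library for MCL1. The separation of this ratio was thus fixed by those changes, and its p adds no further support. Both ratios to MCL1 had an adjusted p of 0.063 in the exact permutation test when a library other than DMSO replicate 1 or SFN replicate 5 was left out. For BBC3 to BCL2L1 the difference was 0.92 ± 0.40 (SE, exact permutation p = 0.063, adjusted 0.085). It was 1.15 without DMSO replicate 1 (exact permutation test, adjusted p = 0.032). For BAX to BCL2 it was 0.69 ± 0.52 (SE, exact permutation p = 0.21, adjusted 0.21). It was 1.13 without DMSO replicate 1 (exact permutation test, adjusted p = 0.021). A ratio removes library scaling but not a length slope, and BAX (795 bases) and BCL2 (6881 bases) have the shortest and longest transcripts of the members. With the length slope as a covariate, the log2 fold changes were 0.08 for BAX and -0.12 for BCL2. They were 2.11 for PMAIP1 (1899 bases), 1.47 for MCL1 (3950 bases) and -1.18 for BCL2L11 (5098 bases). BBC3 (1846 bases) and BCL2L1 (2574 bases) had 0.66 and 0.03. The part of transcript length in these ratios was not tested.

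For each called member, the tested genes of at least 10 mean CPM with the most similar profile were found by the root mean square difference of centred log2 CPM over the 10 libraries, among 8651 genes. Nearest to PMAIP1 were SLC3A2 (0.133), DNAJB9 (0.166) and XBP1 (0.191), whose log2 fold changes were 2.17, 1.91 and 2.14. Nearest to MCL1 were SPINDOC (0.079), WDCP (0.083) and PPP1R10 (0.124), with log2 fold changes of 1.22, 1.22 and 1.41. The genes nearest to BCL2L11 lay farther from it, namely SHPRH (0.224), ZNF518A (0.228) and ELF1 (0.239). The profile of BAK1 was nearest to those of CXorf38 (0.078), SPOUT1 (0.087) and XYLT2 (0.089), and that of BCL2L2 to ZC2HC1A (0.085), CCDC43 (0.089) and AP3M2 (0.096).

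Other genes of the pathway were read from 5 lists with 53 tested genes, of which 12 rose and 9 fell by edgeR's quasi-likelihood test with adjustment over all genes (21 of 53, beside 23.0% of all tested genes, and 34 without DMSO replicate 1, beside 46.1%). Among 7 tested genes of the remaining BCL2 family, BMF and HRK fell and BNIP3L and BCL2L13 rose, and the median log2 fold change was 0.22 against -0.028 for all tested genes. These 4 of 7 stand beside 23.0% of all tested genes. BMF, a BH3-only protein tied to the cytoskeleton, showed the largest change of the lists. It had 85, 125, 129, 65 and 82 counts in the DMSO replicates and 5, 1, 7, 1 and 2 in the SFN replicates. The SFN libraries held almost no BMF counts. The mean fell from 5.39 ± 1.21 to 0.223 ± 0.190 CPM (SD, n = 5 each), a log2 fold change of -4.53 ± 0.39 (SE, edgeR quasi-likelihood adjusted p = 9.8e-06), and by counting error alone, with counts summed, the decrease was 24.1-fold with a 95% exact interval of 14.7 to 42.4. HRK, another BH3-only gene, fell from 5.02 ± 0.738 to 2.35 ± 0.640 CPM (SD, n = 5 each, -1.10 ± 0.20 SE on the log2 scale, edgeR quasi-likelihood adjusted p = 0.0020). BNIP3L, a mitophagy receptor, rose by a log2 fold change of 0.53 ± 0.12 (SE, edgeR quasi-likelihood adjusted p = 0.0066), and BCL2L13 by 0.54 ± 0.16 (SE, edgeR quasi-likelihood adjusted p = 0.032), the latter past the threshold in 9 of 19 alternatives. BAD, BOK and BNIP3 had log2 fold changes between -0.04 and 0.26, and BCL2A1, BCL2L10, BCL2L14, BCL2L15 and BIK had too few counts to be tested.

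**Figure D4:**
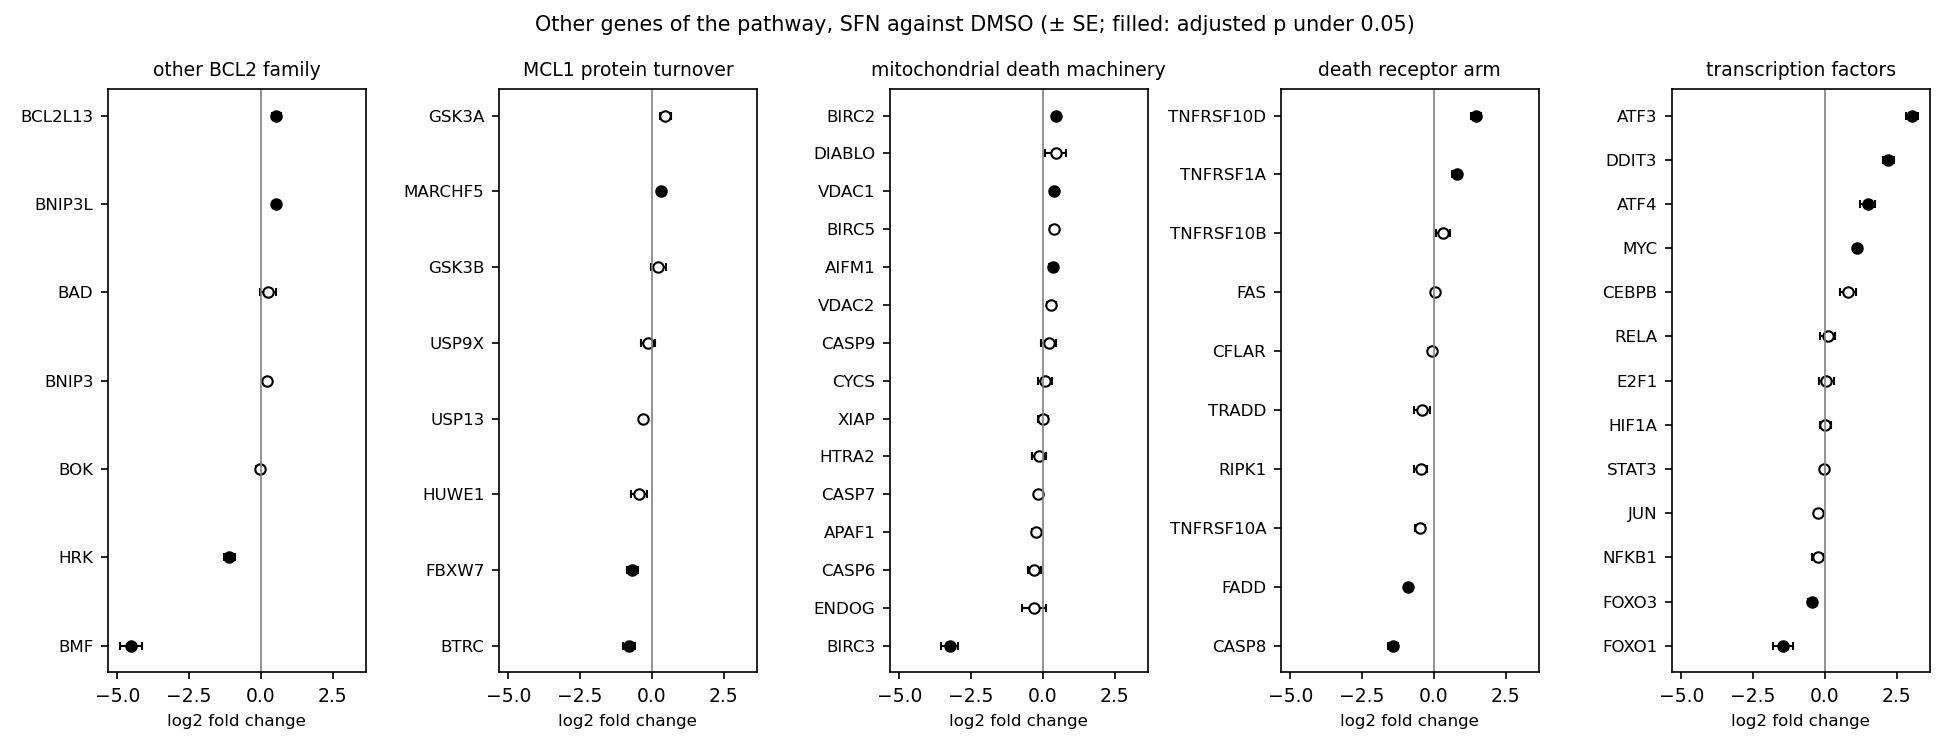
Log2 fold change, SFN against DMSO, with its standard error for the 53 tested genes of the 5 pathway lists, 1 panel a list; filled points had an adjusted p under 0.05 by edgeR's quasi-likelihood test. BMF (-4.53) and BIRC3 (-3.24) lie farthest to the left and ATF3 (3.04) farthest to the right.

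Of 8 tested genes that control the MCL1 protein, MARCHF5 rose and FBXW7 and BTRC fell, with a median log2 fold change of -0.22. These 3 of 8 stand beside 23.0% of all tested genes, 9.07% higher and 13.9% lower. FBXW7 and BTRC are substrate receptors of ubiquitin ligases that can mark MCL1 for degradation, and MARCHF5 is a mitochondrial ubiquitin ligase. Their log2 fold changes were -0.68 ± 0.20 (SE, edgeR quasi-likelihood adjusted p = 0.032) for FBXW7, -0.79 ± 0.22 (SE, edgeR quasi-likelihood adjusted p = 0.023) for BTRC and 0.32 ± 0.08 (SE, edgeR quasi-likelihood adjusted p = 0.019) for MARCHF5. These calls were weak, being kept in 11, 11 and 12 of 19 alternatives, and the groups overlapped for BTRC. FBXW7 was at 37.1 CPM in DMSO replicate 1 against at most 22.1 CPM in the other DMSO libraries, and without that replicate its log2 fold change was -0.43 (edgeR quasi-likelihood adjusted p = 0.0045). BTRC was at 19.6 CPM in DMSO replicate 1, at least 44.4 CPM in the other DMSO libraries and at most 28.0 CPM in SFN. Its log2 fold change was -0.97 without DMSO replicate 1 (adjusted p = 1.4e-05 by the same test). With the length slope as a covariate it was -0.50 (adjusted p = 9.6e-05). HUWE1, the ligase also known as MULE, the deubiquitinases USP9X and USP13, and the kinases GSK3A and GSK3B had log2 fold changes between -0.44 and 0.47 and were not past the threshold, and TRIM17 had too few counts to be tested.

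Downstream of the mitochondrion, 3 of 15 tested genes rose and 1 fell, with a median log2 fold change of 0.08. These 4 of 15 are a share near the 23.0% of all tested genes. The inhibitor of apoptosis genes BIRC2 and BIRC3 went in opposite directions. BIRC2 rose by a log2 fold change of 0.45 ± 0.09 (SE, edgeR quasi-likelihood adjusted p = 0.0031), whereas BIRC3, a target of NF-kB, fell from 40 to 93 counts per DMSO library to only 4 to 7 per SFN library (-3.24 ± 0.30 SE on the log2 scale, edgeR quasi-likelihood adjusted p = 2.1e-05). VDAC1 and AIFM1 rose by 0.40 and 0.34 on the log2 scale but were past the threshold in only 4 and 6 of 19 alternatives. APAF1, CASP9 and CYCS, which make up the apoptosome, had log2 fold changes of -0.24, 0.20 and 0.08 and were not past the threshold.

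In the death receptor arm, 2 of 10 tested genes rose and 2 fell, with a median log2 fold change of -0.23. Of all tested genes, 9.07% rose and 13.9% fell by the same test. TNFRSF10D, a decoy receptor for the ligand TRAIL, rose from 36.4 ± 9.02 to 102 ± 3.09 CPM (SD, n = 5 each, 1.48 ± 0.17 SE on the log2 scale, edgeR quasi-likelihood adjusted p = 1.0e-04). TNFRSF1A, the main receptor for TNF, rose by 0.80 ± 0.15 (SE, edgeR quasi-likelihood adjusted p = 0.0027). CASP8, the initiator caspase that cleaves BID, fell from 9.21 ± 1.28 to 3.46 ± 0.701 CPM (SD, n = 5 each, -1.41 ± 0.17 SE on the log2 scale, edgeR quasi-likelihood adjusted p = 1.2e-04), and FADD, the adaptor that recruits it, fell from 65.4 ± 7.91 to 35.4 ± 2.33 CPM (-0.89 ± 0.11 SE on the log2 scale, edgeR quasi-likelihood adjusted p = 1.5e-04). All 4 genes were past the threshold in all 19 alternatives. FAS, TNFRSF10A, TNFRSF10B and CFLAR had log2 fold changes of 0.03, -0.48, 0.32 and -0.06 and were not past the threshold, and CASP10 had too few counts to be tested.

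Of 13 tested transcription factors known to act on family genes, 4 rose and 2 fell, with a median log2 fold change of 0.06. Across all tested genes, 9.07% were called as higher and 13.9% as lower. ATF3, DDIT3 and ATF4, factors of the integrated stress response, and MYC were those that rose, and DDIT3 had 9.90, 8.29, 6.93, 7.35 and 5.39 CPM in DMSO and 35.1, 47.8, 30.7, 35.0 and 27.2 CPM in SFN. FOXO1 and FOXO3 were those that fell. FOXO1 had only 17 to 32 counts in a DMSO library and 4 to 11 in an SFN library (-1.45 ± 0.35 SE on the log2 scale, edgeR quasi-likelihood adjusted p = 0.011). FOXO3 fell from 65.5 ± 11.9 to 47.4 ± 6.34 CPM (SD, n = 5 each, -0.46 ± 0.14 SE on the log2 scale, edgeR quasi-likelihood adjusted p = 0.033) and was past the threshold in 13 of 19 alternatives. TP73 had too few counts to be tested. In bulk RNA, a lower count from fewer cells that express a gene and from less mRNA per cell cannot be told apart.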

How the data were processed

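Lexogen QuantSeq 3′ end reads were aligned by the authors in the Bluebee pipeline. The submitters' processing notes name STAR, featureCounts and GRCh38. The values deposited by the authors are raw counts per Ensembl gene, not normalized, with replicates kept apart. Whether strand or molecular identifiers were used is not given in the sources used here.

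Genes were filtered with filterByExpr, libraries scaled by TMM, and SFN compared with DMSO by glmQLFit and glmQLFTest of edgeR 4.0.16 (R 4.3.3), with Benjamini-Hochberg adjustment over 13378 genes. DESeq2 1.42.0 and limma 3.58.1 served as alternatives. The study's limma model with repeated measures was not run. Standard errors (SE) were obtained from the F statistic, as the size of the log2 fold change over the root of F. Positions, overlaps and transcript lengths are from GENCODE 44 (GRCh38, the build of the files), and promoter windows from RefSeq. Ratios had 0.5 added to each count. Intervals cover counting error only.

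The members and lists were chosen with earlier results of these data known. Named are all members, the called genes of each list with those needed as contrast, and the 3 nearest profiles. The other tested genes of the lists are given by their counts and medians. Beyond these, 2 genes were taken out of the lists and are not reported here. The promoter motifs, the MCL1 to BCL2L1 ratio and the length slope covariate were chosen after seeing the data. Between replicates, the chi-square per degree of freedom was 3.70 to 280, so no pair was within sampling noise.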

Additional observations from a re-analysis of the deposited data

Results flagged for a closer look

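Over the 10 members in each treatment and the 4 ratios, 28 groups of 5 replicates were examined for a replicate that stood apart, measured as the gap to its nearest neighbour divided by the range of the group. About 1 would be expected by chance if the groups were independent, but they share the same 10 libraries and the ratios reuse members. The comparison is therefore not a test. In all, 7 were found, each of them in DMSO replicate 1. It was lowest for MCL1 (0.80) and BCL2 (0.72), and highest for BCL2L2 (0.76), PMAIP1 (0.78) and BAX (0.87). It also had the highest ratio of PMAIP1 to MCL1 (0.80) and of BAX to BCL2 (0.84). Its length slope was -0.271, against 0.0872 to 0.148 in the other DMSO libraries. The part of this slope in these values was not tested beyond the covariate and the comparisons without the library.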

How the results depend on the processing

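The 5 calls among members were 5 with each other scaling (RLE, upper quartile and library size only), with no low-count filter and with limma-voom, 6 with DESeq2 or the length slope as a covariate, and 4 with a replicate block or against a 1.2-fold change. Calls over all genes moved as well, from 1214 higher and 1862 lower in the main fit. They were 1635 and 2121 with DESeq2 and 3292 and 3431 with the length slope as a covariate. Counts were 1295 and 1774 with RLE, 1054 and 2031 with upper quartile scaling, and 1317 and 1533 with limma-voom. With no low-count filter they were 1135 and 1717 of 28380 genes. With a replicate block they were 911 and 1530, and against a 1.2-fold change 655 and 1279. Limma-voom gained BBC3 and lost BAK1. With an absolute log2 fold change above 1 as well, 3 were called, 1 of them lower. When replicates were left out in turn, 4 to 9 members were called, 2 to 4 higher and 2 to 5 lower, the highest counts coming without DMSO replicate 1. Over all genes, 906 to 3058 were then called higher and 1470 to 3193 lower. Both were also highest without DMSO replicate 1, where 46.1% of tested genes were called. No member changed sign except BCL2L1, at 0.03 with the length slope as a covariate, an alternative chosen after seeing the data.

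The 21 calls in the pathway lists became 36 with that covariate, 20 higher and 16 lower. The share of all tested genes called also went from 23.0% to 50.3%, 24.6% higher and 25.6% lower. Leaving out replicates gave the lists 14 to 34 calls (8 to 18 higher, 6 to 16 lower), with 34 without DMSO replicate 1. The fit without that library called 46.1% of all tested genes. Over 23 called genes named outside the 10 members, 67 of 437 alternative values were no longer past the threshold and 0 changed sign. With library size only the median log2 fold change of all genes was -0.111, and calls over all genes were 819 higher and 2163 lower, against 1214 and 1862.

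With replicates left out the difference was 0.74 to 1.01 for PMAIP1 to MCL1, -2.98 to -2.63 for BCL2L11 to MCL1, 0.62 to 1.15 for BBC3 to BCL2L1 and 0.47 to 1.13 for BAX to BCL2. With 9 libraries the first and second of these had an adjusted p of 0.063 (exact permutation test) in 8 of 10 cases, and the fewer permutations raise the smallest p. Replicate numbers gave no clear sign of pairing: deviations of same-numbered samples correlated between -0.267 and 0.484, and 1 of 5 DMSO samples correlated best with its own number. So few pairs cannot exclude pairing, and the study's own model allowed for repeated measures. As a replicate block, with signs flipped within numbers, the ratios of PMAIP1 (0.82) and BCL2L11 (-2.85) to MCL1 had an adjusted p of 0.12 (exact permutation test), a design that cannot pass the threshold. BCL2L2 was the member not called under the block. Low counts limit BBC3, BCL2L11, BMF, BIRC3 and FOXO1.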
